A study of Mus musculus with 6 samples.

Results

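The 10 genes described here belong to the machinery that decides whether a cell leaves G1, and were measured in microglia, the brain's own macrophages, kept in culture. They were chosen by symbol: Ccnd1, Ccnd2, Ccnd3, Ccne1, Cdk4, Cdk6, Cdkn1a, Cdkn1b, Cdkn2c and Rb1. All 10 were found among the 48005 gene entries of the count table, and none of the 10 lay in an entry that joins several gene identifiers. Both groups were cultured microglia labelled with the CD1 mouse background. The 3 Control libraries (A, B and C) came from microglia given the control treatment, whose make-up, dose and duration the labels do not give. The 3 EV-treated libraries (A, B and C) came from microglia given extracellular vesicles (EVs), which are membrane sacs shed by cells. These were spun down in serial steps from primary neural stem cells of the subventricular zone, also of CD1 mice. The labels give no age or sex, and do not say whether libraries of a group came from separate cultures, so the spread behind each p-value may be technical.

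D-type cyclins bind Cdk4 or Cdk6 and the complexes phosphorylate the retinoblastoma protein, the product of Rb1, which otherwise holds back E2F transcription factors. Cyclin E, the product of Ccne1, then activates Cdk2 and the cell passes into S phase. Inhibitors act on these kinases: p21 (Cdkn1a) and p27 (Cdkn1b) bind cyclin-CDK complexes, whereas p18 (Cdkn2c), of the INK4 family, binds Cdk4 and Cdk6 directly. In microglia and other macrophages, growth factors acting through the Csf1 receptor are known to induce D cyclins, and p21 is a classic target of p53.

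The libraries held 109744701 to 162544804 counts over exon bins, the non-overlapping pieces into which the exons of each gene are divided. A read was counted in every bin it touched and without regard to strand: 3163 of 4438 bins of a single base held counts, and in all 14 pairs of opposite-strand bins with the same ends and any counts, both bins held equal counts in all 6 libraries. Each gene's bins were summed, and bins that share no base with another gene entry ("clear bins") were also summed alone, an analysis added after the data were seen. Of the microglia and macrophage markers, 0 of 10 rose and 6 fell, and their summed level ran from 7654 to 9280 CPM (counts scaled to library size) in Control libraries, against 4868 to 5115 CPM after EV treatment. Summed levels of markers of other cells were 70.8 to 108.3 CPM (Control) against 61.5 to 96.0 CPM (EV-treated) for astrocytes and neural stem cells (2 of 6 tested genes rose and 3 fell), and 212.9 to 440.3 against 30.6 to 43.8 for the oligodendrocyte lineage (1 of 5 rose, 2 fell). They were 0.440 to 0.622 against 0.344 to 0.536 for neurons (0 of 3 rose, 1 fell), 15.9 to 42.3 against 13.99 to 20.8 for fibroblasts and mural cells (2 of 6 rose, 3 fell), and 4.61 to 6.004 against 24.6 to 35.0 for endothelium (3 of 3 tested rose). Most of the endothelial sum was Kdr (5.07 ± 0.795 to 25.3 ± 5.05 CPM). Pecam1 reached 2.34 and Cdh5 1.86 CPM after EV treatment, and Cldn5 (means of 0.00354 and 0.00521 CPM) was too low to be tested. The astrocyte and neural stem cell sums were made up of different genes in the groups: Slc1a2, a glutamate transporter gene, went from 0.0952 ± 0.0805 to 74.8 ± 17.7 CPM, and Nes, a progenitor marker, from 68.5 ± 19.9 to 2.47 ± 0.668 CPM. Slc1a3 rose from 0.0881 ± 0.0306 to 0.337 ± 0.125 CPM. Aldh1l1, whose entry is joined with another identifier, fell from 13.4 ± 2.43 to 1.72 ± 0.635 CPM. Fabp7 fell as well, from 11.7 ± 7.17 to 0.888 ± 0.458 CPM. No listed marker was at 0 in all 6 libraries, and the astrocyte markers Gfap (means of 0.0834 and 0.0365 CPM) and Aqp4 (0.0184 and 0.00521 CPM) were near 0 in both groups. The log2 ratio of 4 Y-linked genes to Xist, centred over the libraries, was 1.05, 0.815 and 0.356 in Control A, B and C and -0.85, -0.824 and -0.552 in EV-treated A, B and C, so that every Control library lay above every EV-treated library. The part of other cell types in the results below was not tested, and the treatment and this ratio cannot be told apart by group alone. In bulk RNA, fewer cells of a type and less RNA per cell cannot be told apart either.

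EV-treated microglia had lost nearly all Ccnd1 RNA, carried 4.78 to 5.75 times as much Cdkn1a, Cdkn1b and Ccnd2 RNA as controls, and had less Cdk6 and Cdkn2c RNA. Rb1 and Ccne1 rose by less. Ccnd3 did not pass the test, and the small rise of Cdk4 did not hold when its last bin, shared with a neighbouring gene entry, was left out. At an adjusted p under 0.05, 6 of the 10 genes rose and 3 fell. Of all 16605 entries tested, 66.5% passed, 33.0% risen and 33.5% fallen, so a change alone sets none of these genes apart. Scaling by library totals alone moved the median entry from -0.02 to -0.38 on the log2 scale, and the risen share of all calls from 49.67% to 34.01%. The 10 genes had a median log2 change of 0.39 and a median absolute change of 1.91, beside -0.02 and 0.81 over all entries tested. In 9 of the 10 the Control and EV-treated libraries did not overlap, as was the case for 71.3% of entries.

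**Figure D1:**
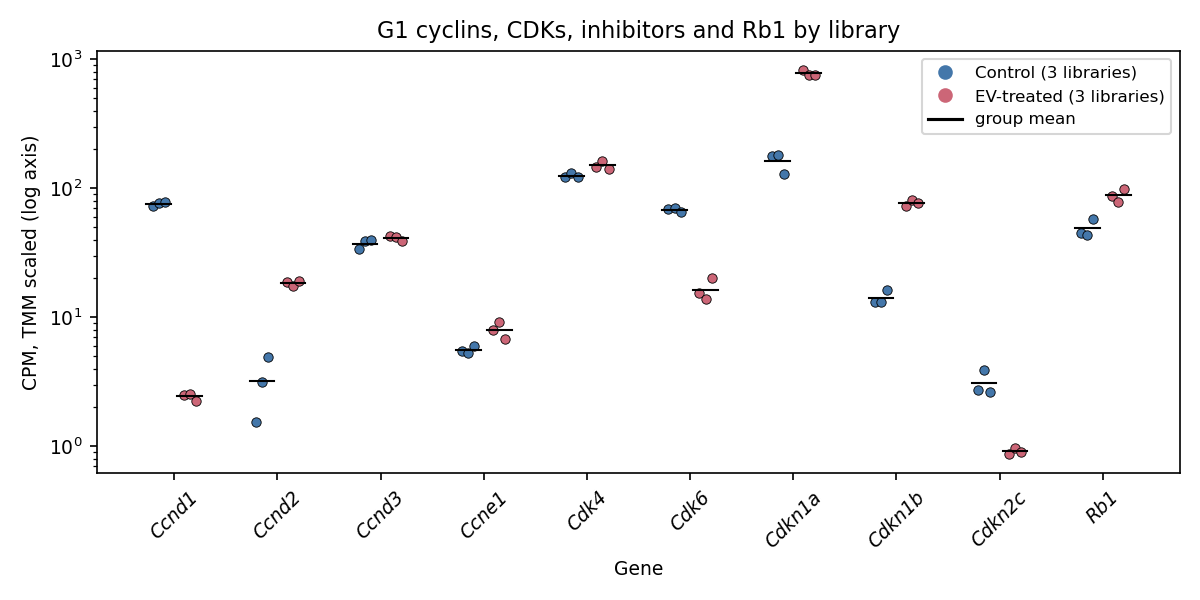
Level of each of the 10 genes in each library, in CPM after TMM scaling on a log axis, with a line at each group's mean. Ccnd1 lies between 73.4 and 78.3 CPM in Control and between 2.26 and 2.54 in EV-treated libraries, while the groups overlap for Ccnd3.

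With the Y to Xist ratio as a covariate, 2 of the 10 genes rose and 1 fell: Cdkn1a, Cdkn1b and Ccnd1. That fit called 2344 of the 16605 entries instead of 11037, and the median standard error over entries grew from 0.17 to 0.58. The log2 changes of the genes that kept their call were -5.25 for Ccnd1 (SE 0.33, adjusted p = 0.00012), 3.07 for Cdkn1a (SE 0.49, adjusted p = 0.00525) and 1.83 for Cdkn1b (SE 0.36, adjusted p = 0.0128). Values of the genes that lost their call are given with each gene.

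Cyclin D1 is encoded by Ccnd1 (ENSMUSG00000070348) on the minus strand of chr7:144929931-144939925 of GRCm38. Its summed level was 73.4, 76.7 and 78.3 CPM in Control A, B and C, and 2.49, 2.54 and 2.26 CPM in EV-treated A, B and C. The 3 EV-treated libraries were all far below the 3 Control libraries, with means of 76.1 ± 2.48 and 2.43 ± 0.151 CPM (SD, n = 3 each). In edgeR's quasi-likelihood test the log2 change was -4.97 (SE 0.11, adjusted p = 2.41e-09). Among the 10 genes this was the largest absolute change in both the summed and the clear-bin analyses.

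The last exon of Ccnd1 shares 1100 exonic bases with LTO1, a gene read from the opposite strand, and most of the counts left in EV-treated cells lay there. This last bin, of 2841 bases, held 5032, 5400 and 8176 counts in Control A, B and C and 298, 275 and 265 in EV-treated A, B and C. A coding bin of 216 bases, clear of LTO1, held 966, 936 and 1433 counts in Control and 0, 3 and 7 in EV-treated libraries. All clear bins together held 4638, 4335 and 6577 counts in Control and 10, 14 and 24 in EV-treated libraries. On clear bins alone the log2 change of Ccnd1 was -8.05 (SE 0.22, adjusted p = 3.47e-09), in a fit that called 66.2% of 15169 entries. The clear bins held 44.5% to 48.0% of the gene's counts in Control libraries but 3.25% to 8.30% after EV treatment. LTO1 itself measured 42.7 ± 2.84 CPM in Control and 26.4 ± 2.25 in EV-treated libraries over all its bins, but its clear bins had a log2 change of 0.07 (SE 0.12, adjusted p = 0.631). All 7 of the Ccnd1 bins that could be tested singly fell, where 60.2% of 201517 bins tested passed in either direction, with log2 changes from -8.47 to -4.17.

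**Figure D2:**
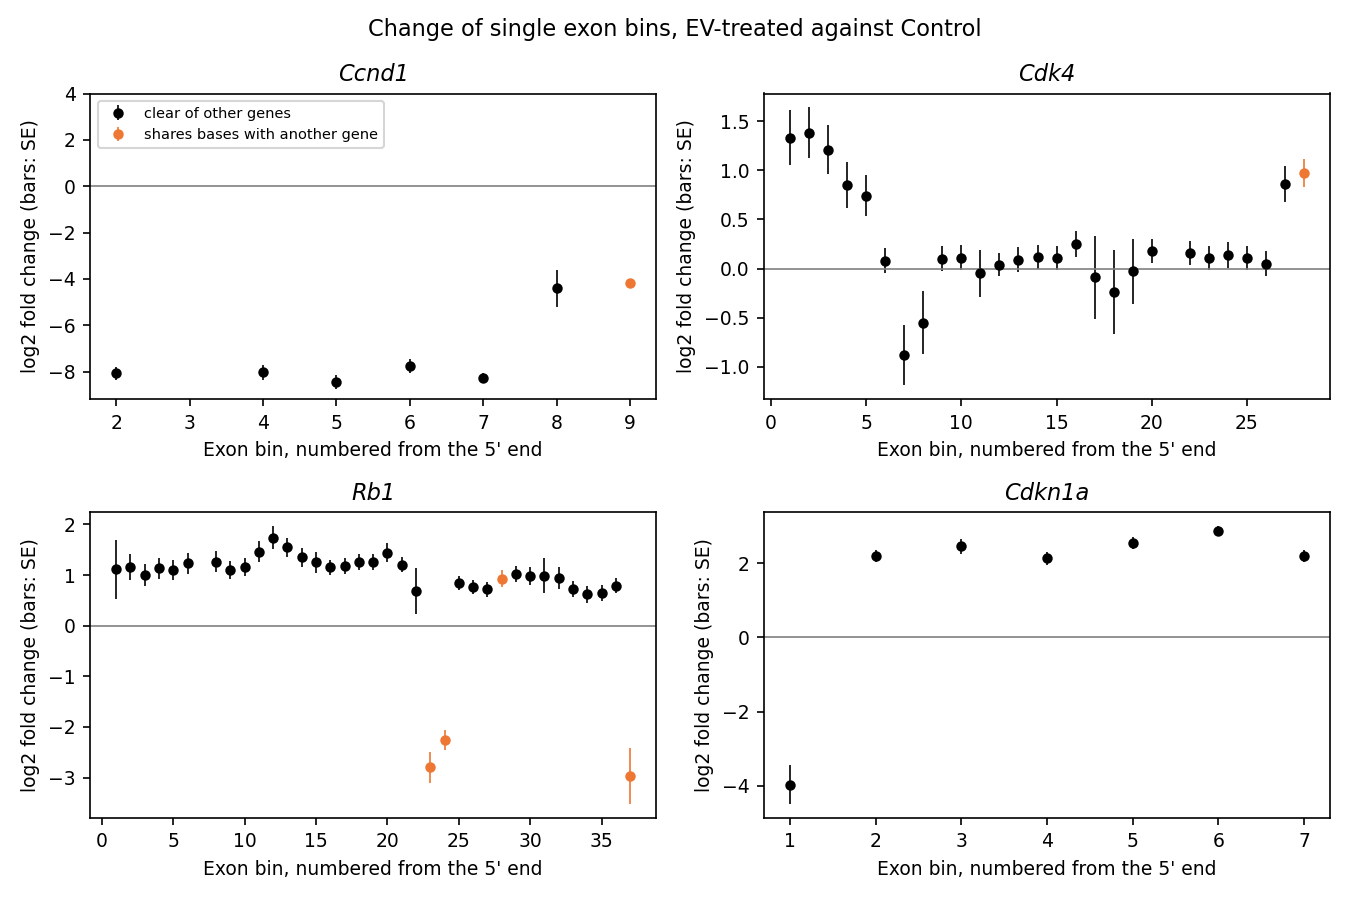
Log2 change (EV-treated against Control, bars are SE) of each tested exon bin of Ccnd1, Cdk4, Rb1 and Cdkn1a, ordered along the gene from its 5' end, with bins that share bases with another gene entry in orange. The shared last bin of Ccnd1 stands at -4.17 while most clear bins lie near -8, the shared last bin of Cdk4 stands at 0.97, 3 shared bins of Rb1 lie below 0, and the first bin of Cdkn1a stands at -3.97 while its other bins rose.

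Cyclin D2 moved the other way. Ccnd2 (ENSMUSG00000000184; chr6:127125162-127152193, minus strand) measured 1.55, 3.12 and 4.90 CPM in Control A, B and C, and 18.7, 17.6 and 19.0 CPM in EV-treated A, B and C. The Control libraries differed among themselves more than the EV-treated ones, but the highest Control library stayed below the lowest EV-treated one. The log2 change was 2.52 (SE 0.33, adjusted p = 0.000101), and 2.63 on bins clear of the antisense genes Gm43126 and 9330179D12Rik. All 10 Ccnd2 bins tested singly rose. Under the Y to Xist covariate the Ccnd2 value was 0.15 (SE 0.71, adjusted p = 0.921), and the call was lost.

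Cyclin D3 was nearly level. Ccnd3 (ENSMUSG00000034165; chr17:47505051-47599691, plus strand) measured 33.6, 38.7 and 39.5 CPM in Control A, B and C and 42.8, 42.1 and 39.4 CPM in EV-treated A, B and C, so the groups overlapped. The log2 change of 0.15 (SE 0.10, adjusted p = 0.214) did not pass, and its sign turned to -0.22 under scaling by library totals and to -0.31 with the Y to Xist covariate.

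Within Ccnd3, the far upstream first exon behaved unlike the rest of the gene. A 26-base coding bin of that exon held 38, 28 and 26 counts in Control A, B and C and 3, 0 and 0 in EV-treated A, B and C (log2 change -4.55, SE 0.76, adjusted p = 0.000117). The coding bin of another first exon, 88413 bases downstream, held 214, 222 and 360 counts in Control and 261, 209 and 227 in EV-treated libraries (0.11, adjusted p = 0.551). The upstream bin therefore held 15.1%, 11.2% and 6.74% of the counts of both bins in Control A, B and C, and 1.14%, 0% and 0% in EV-treated A, B and C. Of 31 bins of Ccnd3 tested singly, 8 fell and 1 rose. The fallen bins were 6 in the upstream part of the gene and 2 of 6 and 2 bases at its 3' end that overlap Bysl, which itself fell (log2 change -1.51, SE 0.12, adjusted p = 2.56e-06).

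The make-up of the D cyclin pool changed accordingly. Shares were computed within each library from coding density, the median over clear coding bins of the CPM per kilobase of bin plus read length. Ccnd1 made up 76.2%, 73.0% and 71.1% of D cyclin coding density in Control A, B and C and 0.595%, 0.517% and 0.880% in EV-treated A, B and C. The Ccnd2 share was 1.87% ± 1.12 in Control and 28.0% ± 1.63 in EV-treated libraries, and the Ccnd3 share 24.7% ± 1.58 and 71.3% ± 1.68 (SD, n = 3 each). The groups did not overlap for any of the 3 shares, and each exact permutation test over libraries, 2-sided, gave p = 0.1, the smallest value that 3 against 3 allows. The summed coding density of the 3 D cyclins was 31.4 ± 1.16 in Control and 12.2 ± 0.940 in EV-treated libraries. Computed from all bins per length, as first planned, the Ccnd1 share was 78.0% ± 1.48 and 7.16% ± 0.309. That measure takes in noncoding bins and the whole last bin of Ccnd1, only part of which is shared with LTO1. What each of these adds to the share was not tested.

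**Figure D3:**
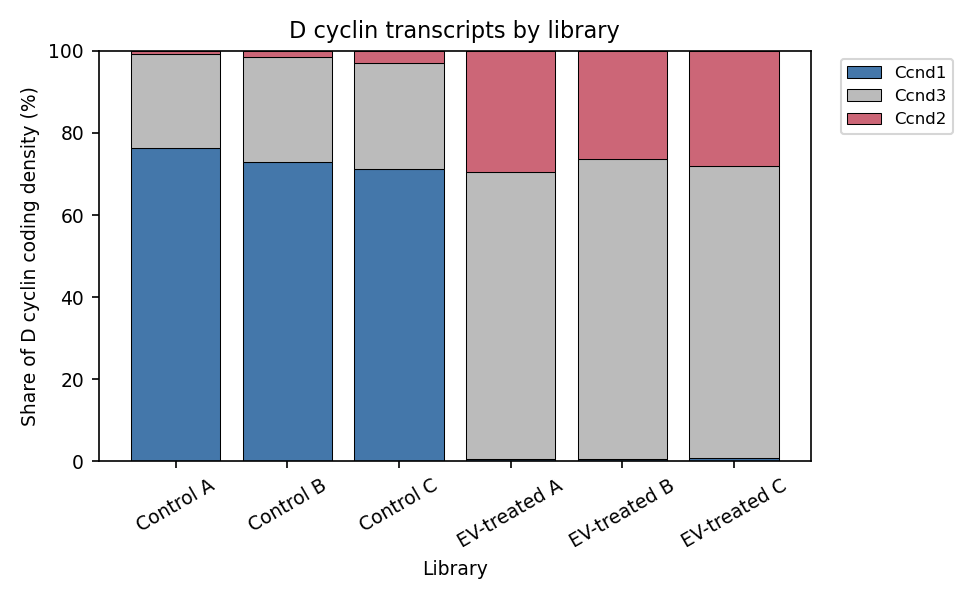
Share of each D cyclin in the summed coding density of the 3 D cyclins in each library, as stacked bars that add up to 100%. Ccnd1 fills 71.1% to 76.2% of the Control bars and under 1% of the EV-treated bars, where Ccnd3 fills most of the rest.

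Ccne1 (ENSMUSG00000002068; chr7:38097984-38107534, minus strand), the cyclin E gene, measured 5.51, 5.25 and 6.0 CPM in Control A, B and C and 7.94, 9.22 and 6.75 CPM in EV-treated A, B and C. The groups did not overlap, although EV-treated C lay close to Control C. The log2 change was 0.51 (SE 0.15, adjusted p = 0.0127), and 5 of 15 bins tested singly rose while 0 fell. Without Control B it was 0.45 (adjusted p = 0.0515), and with the most abundant bin alone it was 0.14 (adjusted p = 0.485), as it was under scaling by library totals (adjusted p = 0.421). The covariate fit gave -0.04 (adjusted p = 0.97).

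Of the 2 kinases that pair with D cyclins, Cdk6 fell and Cdk4 stayed close to its control level. Cdk4 (ENSMUSG00000006728; chr10:127063534-127067920, plus strand) measured 123.3, 130.3 and 123.2 CPM in Control A, B and C and 146.4, 163.8 and 142.1 CPM in EV-treated A, B and C. The summed bins gave a log2 change of 0.26 (SE 0.10, adjusted p = 0.0432), but the last bin overlaps Tspan31 on the opposite strand, whose level was 58.9 ± 2.39 CPM in Control and 121.9 ± 16.5 in EV-treated libraries. That bin had a log2 change of 0.97 (SE 0.14, adjusted p = 2.94e-05). As annotated, Tspan31 also reaches into the end of the bin before it. That earlier bin shares no base with a counted bin of Tspan31 and was kept as clear (0.86, SE 0.18, adjusted p = 0.000969). The clear bins together had 0.13 (SE 0.10, adjusted p = 0.278). The call was also lost with upper-quartile scaling (0.14), without a filter on low counts (0.19), in DESeq2 (adjusted p = 0.07), with the Y to Xist covariate (0.19) and without any 1 of the libraries other than EV-treated C (0.20 to 0.27), and the sign turned to -0.11 under scaling by library totals.

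Bins at the 5' end of Cdk4 also differed from the rest of the gene. The most upstream bin, of 69 bases, held 29, 36 and 41 counts in Control A, B and C and 74, 85 and 60 in EV-treated A, B and C (log2 change 1.33, SE 0.28, adjusted p = 0.000743). The bin that follows some bases further on, which holds the rest of the first exon, had 841, 942 and 1249 counts in Control and 863, 901 and 862 in EV-treated libraries (0.08, adjusted p = 0.611). The RefSeq window of 250 bases (GRCm38.p6) that ends at the first base of that upstream bin, chr10:127063285-127063534 on the plus strand, is shown because it carries 4 E-boxes, the CACGTG letters that Myc, Max and the Mxd factors can bind. Capitals mark them, at positions -172, -118, -98 and -11 from the RefSeq start.
Cdk4 upstream window: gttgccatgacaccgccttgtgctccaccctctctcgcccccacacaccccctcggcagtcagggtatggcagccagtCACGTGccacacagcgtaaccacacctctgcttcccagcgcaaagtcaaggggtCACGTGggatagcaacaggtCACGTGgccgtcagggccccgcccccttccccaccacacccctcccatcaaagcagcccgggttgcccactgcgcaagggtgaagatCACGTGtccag
Of 32851 RefSeq windows of that length, 6.02% held at least 1 E-box, and of the 10 windows found for 7 of these genes, those of Cdk4 and Cdk6 did.

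Cdk6 (ENSMUSG00000040274; chr5:3341485-3531008, plus strand) measured 69.5, 69.8 and 65.8 CPM in Control A, B and C and 15.3, 13.8 and 20.0 CPM in EV-treated A, B and C. All EV-treated libraries were below all Control libraries, with a log2 change of -2.06 (SE 0.14, adjusted p = 1.21e-06). Of its 16 bins tested singly, 14 fell and 0 rose. The fall was larger in the long last bin of 8783 noncoding bases (-2.36, SE 0.17) than over coding bins, whose density went from 4.93 ± 0.494 to 1.97 ± 0.164, a log2 ratio of -1.32. The difference between these parts of the gene was not tested. The most upstream first exon held 60, 43 and 49 counts in Control and 4, 0 and 0 in EV-treated libraries (-4.89, SE 0.68, adjusted p = 2.15e-05), while a bin 2634 bases downstream had a log2 change of -1.94 (SE 0.24). The bins directly before that one, of 56 and 147 bases, had -0.44 (adjusted p = 0.502) and -0.70 (adjusted p = 0.0975) and did not pass. With the Y to Xist covariate the gene's value was -1.5 (adjusted p = 0.0564). The Cdk6 share of the summed coding density of Cdk4 and Cdk6 was 12.7% ± 1.15 in Control and 5.09% ± 0.344 in EV-treated libraries, without overlap (exact permutation test, p = 0.1, the smallest possible). Computed from all bins per length, as first planned, the share was 11.2% ± 0.300 and 2.48% ± 0.633, and from counts not divided by length 35.3% ± 0.684 and 9.86% ± 2.32. The sum itself was 38.9 ± 0.609 and 38.8 ± 1.77.

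Of the 3 inhibitors followed here, Cdkn1a and Cdkn1b rose and Cdkn2c fell. Cdkn1a (ENSMUSG00000023067; chr17:29090979-29100722, plus strand), which encodes p21, measured 179.3, 181.8 and 130.2 CPM in Control A, B and C and 828.1, 762.6 and 757.9 CPM in EV-treated A, B and C. Control C was the lowest of the Control libraries, and all 3 EV-treated libraries stood well above them. The log2 change was 2.26 (SE 0.15, adjusted p = 9.41e-07). Among the 10 genes Cdkn1a had the highest coding density in both groups, 89.8 ± 19.4 and 394.3 ± 18.4.

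The rise of Cdkn1a came with a fall of its upstream first exon. That exon held 84, 99 and 61 counts in Control A, B and C and 4, 8 and 1 in EV-treated A, B and C (log2 change -3.97, SE 0.52, adjusted p = 1.17e-05). The other first exon, which starts 2793 bases downstream, held 2862, 2567 and 2631 counts in Control and 11082, 9678 and 10417 in EV-treated libraries (2.19, SE 0.17, adjusted p = 4.15e-08). The upstream exon made up 2.85%, 3.71% and 2.27% of both in Control A, B and C, and 0.0361%, 0.0826% and 0.00960% in EV-treated A, B and C, with no overlap. The other 5 bins of the gene all rose, with log2 changes from 2.13 to 2.86. The downstream first exon lies within AC167363.2, which is annotated on the opposite strand and has no entry among the counts. That exon's bin was therefore taken as clear of other genes, and the part of AC167363.2 in its counts was not tested. The windows of 250 bases that RefSeq (GRCm38.p6) gives upstream of each start are shown since the first exons behind them moved in opposite directions. They lie on the plus strand at chr17:29090729-29090978 and chr17:29093519-29093768, and hold none of the E-box, AP-1, E2F and CRE letters searched for. Sites for p53 and NF-kappaB are not reported here, so neither their presence nor their absence can be read from this search.
Cdkn1a upstream start: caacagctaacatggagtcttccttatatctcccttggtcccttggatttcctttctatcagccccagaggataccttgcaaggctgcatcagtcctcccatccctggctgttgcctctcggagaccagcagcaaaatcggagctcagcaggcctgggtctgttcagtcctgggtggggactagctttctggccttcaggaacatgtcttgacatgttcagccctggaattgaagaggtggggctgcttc
Cdkn1a downstream start: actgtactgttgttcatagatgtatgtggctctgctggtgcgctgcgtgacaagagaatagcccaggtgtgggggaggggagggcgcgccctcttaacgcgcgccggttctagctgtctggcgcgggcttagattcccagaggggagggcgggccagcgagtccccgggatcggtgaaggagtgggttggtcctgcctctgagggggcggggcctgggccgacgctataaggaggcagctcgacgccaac
The upstream window has a GC content of 54.0% and 2 CpG sites, and the downstream window 64.8% and 19, against medians of 52.4% and 6 over all windows.

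Cdkn1b (ENSMUSG00000003031; chr6:134920401-134925513, plus strand), which encodes p27, measured 13.1, 13.2 and 16.4 CPM in Control A, B and C and 73.3, 80.5 and 76.2 CPM in EV-treated A, B and C. Every EV-treated library was more than 4 times as high as every Control library. The log2 change was 2.43 (SE 0.12, adjusted p = 1.38e-07), all 8 of its bins rose, and no annotated entry overlaps it. Cdkn2c (ENSMUSG00000028551; chr4:109660876-109667189, minus strand), which encodes p18, measured 2.73, 3.87 and 2.64 CPM in Control A, B and C and 0.872, 0.967 and 0.898 CPM in EV-treated A, B and C. Its groups did not overlap, all 4 of its bins fell, and the log2 change was -1.75 (SE 0.21, adjusted p = 5.72e-05). In the covariate fit the Cdkn2c value was -1.46 (adjusted p = 0.252).

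Rb1 (ENSMUSG00000022105; chr14:73183673-73325822, minus strand), the retinoblastoma gene, measured 45.3, 43.6 and 58.0 CPM in Control A, B and C and 87.6, 78.9 and 99.1 CPM in EV-treated A, B and C. The C library was the highest of each group, and the groups did not overlap. The log2 change was 0.85 (SE 0.14, adjusted p = 0.000394), and 1.01 (SE 0.14, adjusted p = 0.000107) over clear bins, of which 30 of the 32 tested rose and 0 fell. Of the 4 bins that share bases with Lpar6 or Rcbtb2 on the opposite strand, 3 fell, with log2 changes of -2.80, -2.26 and -2.97. Lpar6 and Rcbtb2 themselves had log2 changes of -2.52 (SE 0.21) and -0.99 (SE 0.11). The Rb1 value with the covariate was 0.40 (adjusted p = 0.623).

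**Figure D4:**
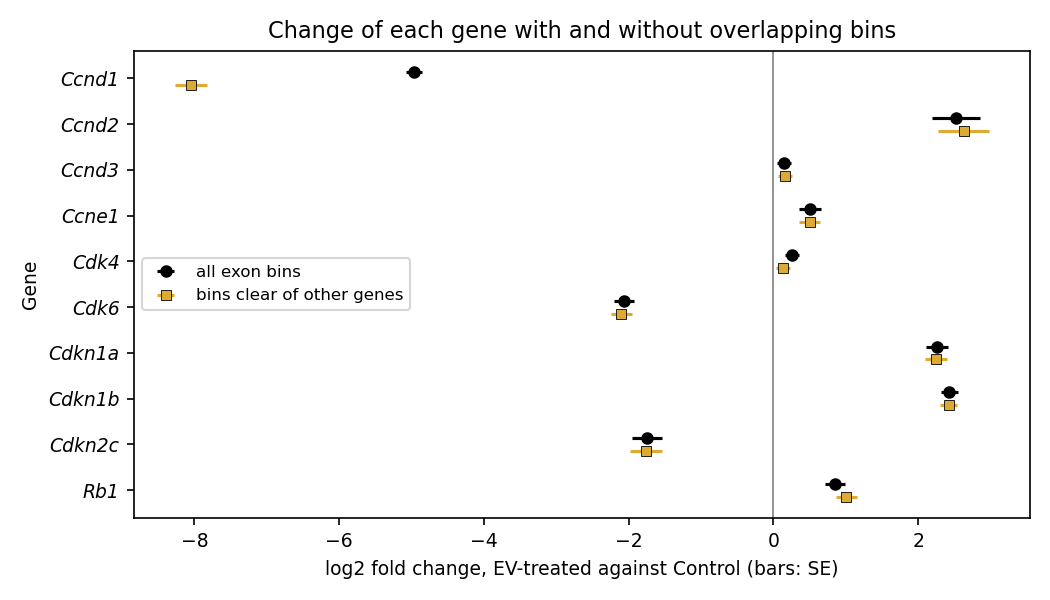
Log2 change of each gene (EV-treated against Control, bars are SE) from all its exon bins and from bins that share no base with another gene entry. Ccnd1 moves from -4.97 to -8.05, Cdk4 from 0.26 to 0.13 and Rb1 from 0.85 to 1.01, and the other 7 genes change by less than their SE.

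Set side by side per length, as coding density, the order of these genes in Control was Cdkn1a (89.8 ± 19.4), Cdk4 (34.0 ± 0.467), Ccnd1 (23.0 ± 0.0552), Ccnd3 (7.76 ± 0.769), Cdkn1b (6.73 ± 0.575), Cdk6 (4.93 ± 0.494), Rb1 (4.47 ± 0.715), Cdkn2c (2.16 ± 0.399), Ccne1 (1.47 ± 0.0979) and Ccnd2 (0.596 ± 0.373). Ccnd3 and Cdkn1b, and Cdk6 and Rb1, lay within their spread of each other. The densities rest on 1 coding bin each for Cdkn1a and Cdkn2c, 2 for Cdkn1b, 3 for Ccnd1 and 5 to 21 for the other genes. The spread is that between libraries and does not cover differences between bins of a gene. In EV-treated libraries Cdkn1a was again first (394.3 ± 18.4). Cdkn1b (37.7 ± 2.50) and Cdk4 (36.8 ± 1.68) followed and did not differ beyond their spread. Rb1 (9.97 ± 0.823) and Ccnd3 (8.68 ± 0.480) came next, then Ccnd2 (3.42 ± 0.462). Cdk6 (1.97 ± 0.164) and Ccne1 (1.95 ± 0.490) lay within their spread of each other, above Cdkn2c (0.542 ± 0.149) and Ccnd1 (0.0808 ± 0.0230). Ccnd1 thus went from the third to the last place.

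The other genes of the pathway were taken from 7 lists, whose counts stand beside 33.0% of all entries risen and 33.5% fallen. No list was tested against other genes, and nothing particular to a list is read from its count. Of 14 other cyclins, CDKs and their activators, 3 rose and 8 fell, with a median log2 change of -0.88. Ccna2, the S phase cyclin, went from 5.60 ± 1.02 to 2.02 ± 0.216 CPM (log2 change -1.47), and over its clear bins alone the value was -4.19 (SE 0.57, adjusted p = 0.000116). Ccnh, a subunit of the kinase that activates CDKs, had -1.57 (SE 0.13, adjusted p = 3.55e-06). The CDK-binding subunits parted, with Cks1b at -2.45 (SE 0.18) and Cks2 at 2.46 (SE 0.20). Ccne2, the second cyclin E gene, rose with Ccne1, from 3.04 ± 0.735 to 10.4 ± 1.41 CPM (1.78, SE 0.20), and the phosphatase gene Cdc25b rose by less (0.62, SE 0.17). Of 5 other CDK inhibitors 3 rose and 1 fell, with a median of 1.38. Cdkn2b, which encodes p15, went from 3.77 ± 0.428 to 18.8 ± 2.59 CPM (2.32, SE 0.15) and Cdkn2d, which encodes p19, had 1.53 (SE 0.19), so these INK4 genes rose where Cdkn2c fell. Cdkn2a, which encodes p16 and ARF, fell from 25.5 ± 3.71 to 12.7 ± 3.28 CPM (-1.01, SE 0.19).

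Downstream of the kinases, 3 of 18 pocket protein, E2F and DREAM complex genes rose and 12 fell, and the median was -0.69. The risen ones were E2f5, a repressive E2F (4.69 ± 0.447 to 54.0 ± 10.5 CPM, log2 change 3.53, SE 0.16), Lin54, the DNA-binding subunit of DREAM (2.70, SE 0.11), and Lin9 of the same complex (0.95, SE 0.14). Tfdp2, an E2F partner, had -1.40 (SE 0.13), Rbl2, the pocket protein p130, -0.88 (SE 0.13) and E2f6 -0.75 (SE 0.11), so Rbl2 fell where Rb1 rose. Of 19 E2F target genes of DNA replication 3 rose and 14 fell, and the median was -0.88. Rrm2, the ribonucleotide reductase subunit that limits dNTP supply, went from 9.29 ± 1.502 to 0.718 ± 0.228 CPM (-3.69, SE 0.25). The helicase genes Mcm6 (-1.61, SE 0.13) and Mcm3 (-1.60, SE 0.11) fell, while Orc1, a subunit of the origin recognition complex, rose (1.87, SE 0.16).

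Among 13 ubiquitin ligase and kinase genes that turn over G1 proteins, 6 rose and 5 fell, and the median was 0.15, and under scaling by library totals 3 rose. Cul1, the scaffold of the SCF ligases, went from 86.3 ± 6.13 to 254.8 ± 20.2 CPM (1.56, SE 0.11), Cul4b had 0.81 (SE 0.12) and Fzr1, an activator of the anaphase-promoting complex, 0.64 (SE 0.10). Ddb1 (-0.68, SE 0.10), Rnf123, a ligase subunit for p27 (-0.56, SE 0.11), and Fbxw7, the SCF receptor for cyclin E (-0.57, SE 0.11), fell. Of 17 growth signal genes upstream of cyclin D, 10 rose and 4 fell, and the median was 0.45. Mxd1, a Max partner that opposes Myc, went from 6.59 ± 0.228 to 130.5 ± 8.72 CPM (4.31, SE 0.11), while the related Mxd4 went from 73.1 ± 3.27 to 10.1 ± 0.140 (-2.86, SE 0.10). Fosl1, an AP-1 subunit, rose (4.43, SE 0.28), as did Csf2rb, a cytokine receptor gene whose entry is joined with another identifier (2.46, SE 0.14). Tcf7l2, a Wnt effector (-2.46, SE 0.28), and the immediate early gene Egr1 (-1.88, SE 0.26) fell.

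Of 19 p53 and FoxO pathway genes 8 rose and 8 fell, and the median was 0.29. Trp53 itself went from 64.1 ± 4.94 to 29.2 ± 2.35 CPM (-1.14, SE 0.11). Gadd45b (4.60, SE 0.27), Plk2 (2.46, SE 0.14) and Sesn2 (1.97, SE 0.12) rose with Cdkn1a. Phlda3 (-3.10, SE 0.19) and Sesn1 (-2.55, SE 0.13), which like Cdkn1a are known p53 targets, fell. All genes named from these lists passed the test at an adjusted p under 0.05 in edgeR, and all of them kept their direction and call on clear bins alone. In edgeR with the Y to Xist covariate, the ubiquitin list lost every call, with 0 risen and 0 fallen genes (2 and 1 at an unadjusted p under 0.05). The pocket protein list had 2 risen and 2 fallen, the E2F target list 0 and 5 (1 and 10 unadjusted), and the list of other CDK inhibitors 1 and 0 (2 and 1 unadjusted). The lists of other cyclins, growth signals and the p53 and FoxO pathway had 1 and 3, 4 and 4, and 4 and 2.

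**Figure D5:**
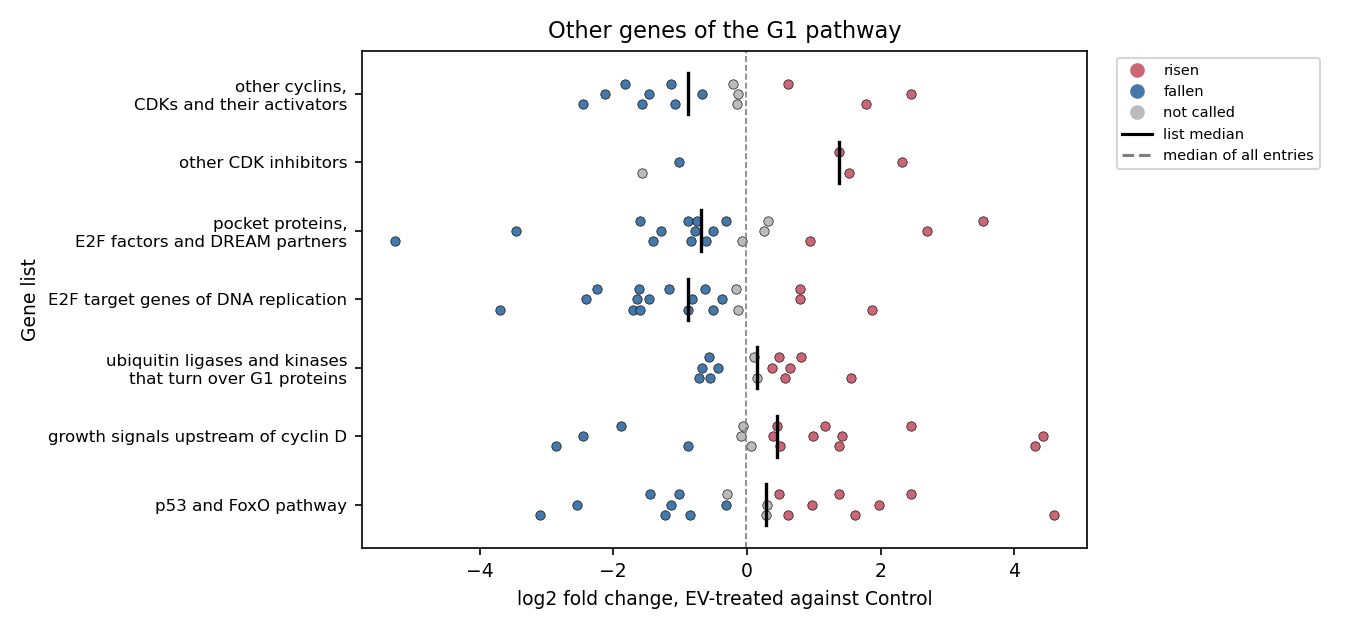
Log2 change (EV-treated against Control) of each tested gene of the 7 pathway lists, coloured by whether it rose, fell or did not pass at an adjusted p under 0.05, with each list's median as a black line and the median of all entries, -0.02, as a dashed line. The list medians run from -0.88 for other cyclins and E2F targets to 1.38 for other CDK inhibitors.

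The genes whose 6 values ran most like those of Ccnd1, by the root mean square distance of log2 CPM centred on each gene's mean over the 6 libraries, were Engase (0.113), Rgs2 (0.120) and Pycard (0.147). Their log2 changes were -4.86 (SE 0.14), -5.16 (SE 0.13) and -4.78 (SE 0.13), against -4.97 for the summed bins of Ccnd1. The distances used these summed bins, which include the bin shared with LTO1. On clear bins alone Ccnd1 had -8.05, and likeness to that value was not tested. With 2 groups, such a distance mainly measures how alike the differences between groups are.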

How the data were processed

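RNA of 6 libraries of cultured mouse microglia was poly(A) selected and made into libraries with a NEBNext Ultra kit, per the labels' protocols, and sequenced as read pairs of 150 bases at 56 to 84 M reads per sample, per the series' design text. The submitters' processing notes name Trimmomatic 0.36, STAR, Subread, DESeq2 and GRCm38, without their settings. The authors deposited raw counts per exon bin, 425461 bins in 48005 entries, of which 1194 join several identifiers. The per-sample files equalled the series table in all 6 libraries. Strand and multiple counting were read from the data. Symbols were found for 49298 of 49644 identifiers.

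Bins were summed per entry and tested with edgeR 4.0.16 (quasi-likelihood test, TMM scaling, filterByExpr, Benjamini-Hochberg over 16605 entries, threshold 0.05), checked first on simulated data. SE is the absolute log2 change over the root of F. Coding density used clear bins of at least 50 bases, 90% or more coding. Coordinates and overlaps came from the files' bins and GENCODE vM21 (GRCm38).

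The 10 genes, the lists and the tests were chosen with earlier results of these data known. Named list genes are, per list, up to 3 risen and 3 fallen genes of smallest p, among genes whose groups did not overlap and whose log2 CPM averaged 1 or more. A gene that this rule names is not reported here. A total of 19 alternatives were run, including DESeq2 1.42.0 and limma 3.58.1. The clear-bin analysis was added after the data were seen. Other motifs counted on both strands were AP-1 (TGANTCA, in 6.75% of windows), E2F (TTTNNCGC, 4.28%, in the Cdk6 window) and CRE (TGACGTCA, 1.55%), and AP-1 and CRE letters were in none of the 10 windows. Motifs for p53 and NF-kappaB were also looked at and are not reported here. Ccnd1, Ccnd2 and Rb1 have no window here.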

Additional observations from a re-analysis of the deposited data

How the results depend on the processing

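Ccnd1, Cdkn1a and Cdkn1b kept their direction and call under all 19 alternatives, Ccnd2, Cdk6, Cdkn2c and Rb1 under 18, with the Y to Xist covariate as the exception, Ccne1 under 14 and Cdk4 under 7. The 7 for Cdk4 include the fit on its most abundant bin (1.05), which is the last bin that overlaps Tspan31. With the Y to Xist covariate the risen genes went from 6 to 2 and the fallen from 3 to 1. Signs reversed for Ccnd3 (-0.22) and Cdk4 (-0.11) under scaling by library totals, and for Ccnd3 (-0.31) and Ccne1 (-0.04) with the covariate. Leaving out each library in turn gave 4 to 6 risen genes, the lowest without Control B, and 3 fallen. At an adjusted p under 0.01, 4 genes rose and 3 fell. Libraries of the same letter deviated together with correlations of 0.035 (A), 0.167 (B) and 0.21 (C), not all above 0.1, so the letters were not taken as pairs, although every library correlated best with its own letter. With a replicate block 6 genes rose and 3 fell. The covariate moved the count of 12 of the 14 list directions by over 1.5 times, and the single fallen gene among other CDK inhibitors became 2 under 7 alternatives. The shares kept their direction under the 9 alternatives run for them. Depth limits the Ccnd1 values of EV-treated libraries most, where 10 to 24 clear-bin counts remain.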
